A study of Mus musculus with 3 samples.

Results

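Cytosolic ribosomal protein genes encode the proteins of the ribosome, and 86 of the 21951 protein-coding genes of the GENCODE M21 mouse annotation were followed here. They were taken by symbol: Rpl or Rps followed by a digit, or Rpsa, Rplp0, Rplp1 or Rplp2. Symbols starting with Rps6k, which are kinases, and pseudogenes were left out. The rule took 52 Rpl and Rplp genes of the large subunit, 33 Rps genes of the small subunit (Rpsa included) and Rps19bp1, a Rps19 binding protein that is no part of the ribosome. The long-read libraries came from CD4+ T cells isolated from spleens and lymph nodes of male WT mice, which the methods give as C57BL/6N of 6 to 10 weeks. They held naive cells, cells stimulated for 48 h with plate-bound anti-CD3 and anti-CD28 that had not divided, and cells stimulated in the same way that had divided 2 times. The activated cells were sorted on the CellTrace Violet dye, which each division dilutes, and the naive cells were purified with an isolation kit and not sorted on the dye. The deposited data give exon positions of transcript models on GRCm38 without read numbers: a model is present or absent, and its abundance is unknown. Each condition had 1 library, no test was possible, and each difference below is between libraries. By the names under which the data were deposited, the naive library ran on a sequencing cell of its own and the activated pair shared another, so that activation and sequencing cell cannot be told apart.

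Ribosomal proteins assemble with ribosomal RNA in the nucleolus into a small subunit, which reads the mRNA, and a large subunit, which joins amino acids. Their mRNAs are short, carry very short 5′ and 3′ untranslated regions, and begin with a C followed by a run of pyrimidines, the 5′ terminal oligopyrimidine (TOP) sequence. Through this sequence the mTOR pathway adjusts translation of the whole family to growth signals, and T cells build many ribosomes when they leave the resting state. Several ribosomal protein genes are also known to keep their own level in check by splicing their pre-mRNA into forms that hold an early stop codon.

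The first bases of the models are shown because the TOP sequence was common in these genes and rare in others. Each line gives 30 bases of the GRCm38 genome in the direction of the transcript, around the start most used by the models of that gene. The model starts at base 11 of each line, and capitals mark the longest pyrimidine run counted from a C within 5 nt of that base.
Rpl4 start: acaagtCTTTCCTTTTCCTgtgggagcagc
Rpl32 start: ccgcctCTTCCTTCTTCCTCggcgctgcct
Rps2 start: gcgcctCCCTCTTCTTCTTCTTCgggagaa
Rps3 start: gagccaCTTCCTTTCCTTTCagcggcgcgc
Rpl10a start: agcgctctgCCTTCTTTCCggtttccgcgg
Rps6 start: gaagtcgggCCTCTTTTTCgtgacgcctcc
Rplp0 start: tgcggcccgtCTCTCgccaggcgtcctcgt
Rpl3 start: cctggtcgCTCTCTatctgcggcgtgtggc
Rpl7l1 start: cgcagtagctgaagcaccggaaagatggcg
Rps27l start: cctctatcccggaagttgctgaggggcgct
The windows lie at chr9:64173364-64173393 on the plus strand (Rpl4), chr6:115808724-115808753 on the minus strand (Rpl32), chr17:24720100-24720129 on the plus strand (Rps2) and chr7:99483631-99483660 on the minus strand (Rps3). Those of the next genes are chr17:28328573-28328602 on the plus strand (Rpl10a), chr4:86857348-86857377 on the minus strand (Rps6), chr5:115559505-115559534 on the plus strand (Rplp0) and chr15:80083333-80083362 on the minus strand (Rpl3). The last pair are chr17:46782627-46782656 on the minus strand (Rpl7l1) and chr9:66946087-66946116 on the plus strand (Rps27l). Counted from that C, the runs are 13 bases long in Rpl4, 14 in Rpl32 and Rps3, 17 in Rps2, 10 in Rpl10a and Rps6, 6 in Rpl3 and 5 in Rplp0. In Rpl4, Rpl32, Rps2 and Rplp0 the base before the capitals is also a pyrimidine, so the unbroken run is longer than the part counted. Rpl7l1, a relative of Rpl7, and Rps27l, a relative of Rps27 known as a p53 target, had no such run.

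More ribosomal protein genes were seen in the activated libraries than in the naive one. A gene counted as seen when at least 1 spliced model shared a splice site with it. Of the 86 genes, 34 were seen in naive cells (39.5%, exact 95% interval 29.2% to 50.7%), 60 in undivided activated cells (69.8%, 58.9% to 79.2%) and 54 after 2 divisions (62.8%, 51.7% to 73.0%). These genes had 58 models in naive cells, 120 in the undivided cells and 122 after 2 divisions, of 10527, 12602 and 11109 models in each whole library. Their share of all models was 0.551% (0.419% to 0.712%) in naive cells, 0.952% (0.790% to 1.14%) in the undivided cells and 1.1% (0.913% to 1.31%) after 2 divisions. The intervals cover counting error only, and models of one gene are not independent.

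Of the genes seen in either library of a pair, 29 of 63 ribosomal protein genes (46.0%) were seen in the undivided cells and not in naive cells, against 26.8% of all genes. The opposite held for 3 of 63 (4.76%), against 12.8% of all genes. After 2 divisions 23 of 57 (40.4%) were gained over naive cells, where 24.4% of all genes were, and 3 of 57 (5.26%) were lost, where 16.7% of all genes were. Between the activated libraries, 10 of 70 (14.3%) were gained after 2 divisions and 16 of 70 (22.9%) were lost, close to the 11.0% and 17.6% of all genes. Both subunits had the same order of libraries: 15, 25 and 21 of 33 small subunit genes and 19, 35 and 32 of 52 large subunit genes were seen in naive, undivided and 2-division cells. By comparison 29, 43 and 43 of 78 mitochondrial ribosomal protein genes and 33, 35 and 36 of 40 proteasome subunit genes (the Psma, Psmb, Psmc and Psmd genes of the protein-degrading complex) were seen in the same order.

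A set of 28 genes was seen in all 3 libraries, 16 in both activated libraries only, 13 in the undivided cells only, 7 after 2 divisions only, and none in naive cells only. Among the 16 were Rpl11, which with Rpl5 binds the 5S ribosomal RNA, Rplp2 of the ribosomal stalk, and Rps27a, whose protein is made as a fusion with ubiquitin. Those of the undivided cells only held some of the shortest mRNAs of the family, with reference mRNAs of 345 nt for Rpl38 and Rps27, 383 nt for Rpl36 and 437 nt for Rpl41. Rpl22l1 and Rps19 were seen in naive cells and after 2 divisions only, and Rpl34, Rps15a and Rps24 in naive and undivided cells only. No spliced model was seen for 16 genes: Rpl10l, Rpl17, Rpl26, Rpl27a, Rpl36a, Rpl36al, Rpl37a, Rpl39, Rpl39l, Rpl3l, Rplp1, Rps21, Rps26, Rps27rt, Rps28 and Rps29. Of these, Rpl10l, Rpl39l and Rpl3l are known from testis or muscle. Rpl10l and Rps27rt have a single exon and could not have a spliced model.

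Genes with longer mRNAs were seen more often. The reference mRNA of a gene (the shortest complete annotated transcript that encodes the principal protein) had a median length of 840 nt for the genes seen in naive cells and 597.5 nt for those not seen there. It was 789.5 nt against 555 nt in the undivided cells and 789.5 nt against 564 nt after 2 divisions. Of the 18 spliced genes with a reference mRNA under 500 nt, 2 were seen in naive cells, 10 in the undivided cells and 7 after 2 divisions. Of the 19 genes of 1000 nt and over, 11, 16 and 14 were seen. Short transcripts of every kind were rare in the naive library: 233 of its models were under 1000 nt (2.21%), where 634 (5.03%) were in the undivided cells and 602 (5.42%) after 2 divisions. The part of this length difference in the numbers of ribosomal protein genes seen was not tested. Within each length class the ribosomal protein genes were seen more often than other protein-coding genes, of which 10, 10 and 5 of 405 under 500 nt and 128, 163 and 171 of 1279 from 700 to under 1000 nt were seen.

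**Figure D1:**
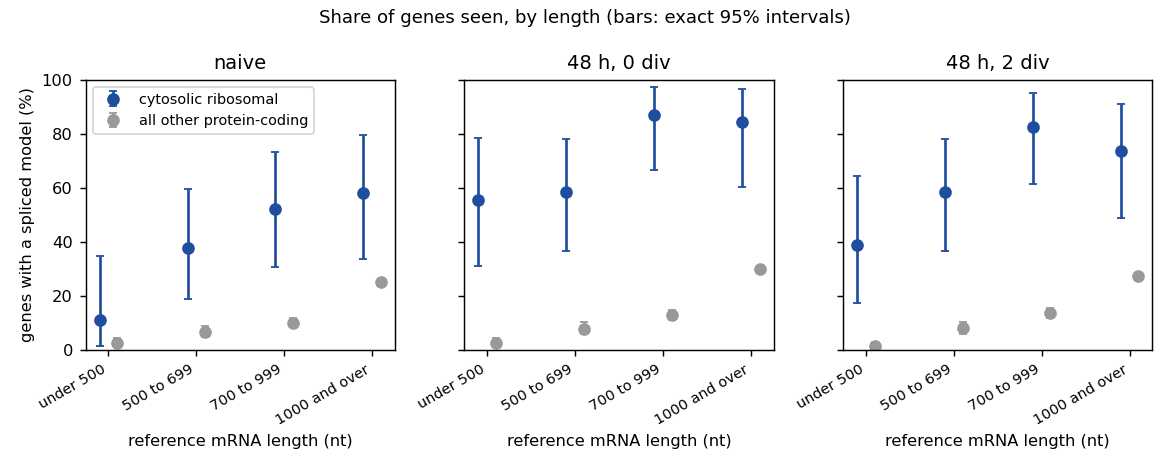
Share of genes with a spliced model (vertical axis, %) by the length of the reference mRNA (horizontal axis, nt), for cytosolic ribosomal protein genes and all other protein-coding genes, with exact 95% intervals, in naive, undivided and 2-division cells. From 700 to under 1000 nt, 52.2%, 87.0% and 82.6% of the ribosomal protein genes were seen, against 10%, 12.7% and 13.4% of the others.

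Most ribosomal protein genes had a single model, and a few had many. Of the genes seen, 21 of 34 in naive cells, 37 of 60 in the undivided cells and 28 of 54 after 2 divisions had 1 model. Rpl4, whose protein reaches into the exit tunnel of the large subunit, had the most, with 5 models in naive cells, 14 in the undivided cells and 15 after 2 divisions. Rplp0, the base of the stalk, had 2, 4 and 6 models in the same order, Rpl7l1 had 2, 6 and 5, and Rpl5 had 1, 5 and 4. Rpl13a had 1, 4 and 4 models, Rpl18 had 1, 3 and 4, Rpl15 had 0, 4 and 2, and Rpl10 had 3, 5 and 4. In these genes both activated libraries held more models than the naive one. Others did not follow: Rpl10a had 6, 4 and 5 models, and Rps6 (the target of S6 kinase) and Rpl32 had 3 in each.

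A gene was called for a change when one library held at least 2 times as many models as another and at least 2 models more. In undivided against naive cells 14 of 63 ribosomal protein genes (22.2%) were higher by this rule, where 16.7% of all genes were, and 0 were lower, where 7.00% of all genes were. After 2 divisions 17 of 57 (29.8%) were higher than in naive cells, where 13.8% of all genes were, and 0 were lower, where 8.96% were. The share of higher genes thus lay near that of all genes in the undivided cells and above it after 2 divisions. Between 2-division and undivided cells, 6 of 70 genes were higher (4.64% of all genes were) and 4 were lower (8.60% of all genes were). Among those higher after 2 divisions were Rpl22, Rpl29, Rps2, Rps27a and Rpsa, the laminin-receptor-related protein of the small subunit, with 4 models after 2 divisions and 1 in the undivided cells. Those lower were Rpl13, Rpl15, Rpl30 and Rps12, with 3 models of Rpl30 in the undivided cells and none after 2 divisions.

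**Figure D2:**
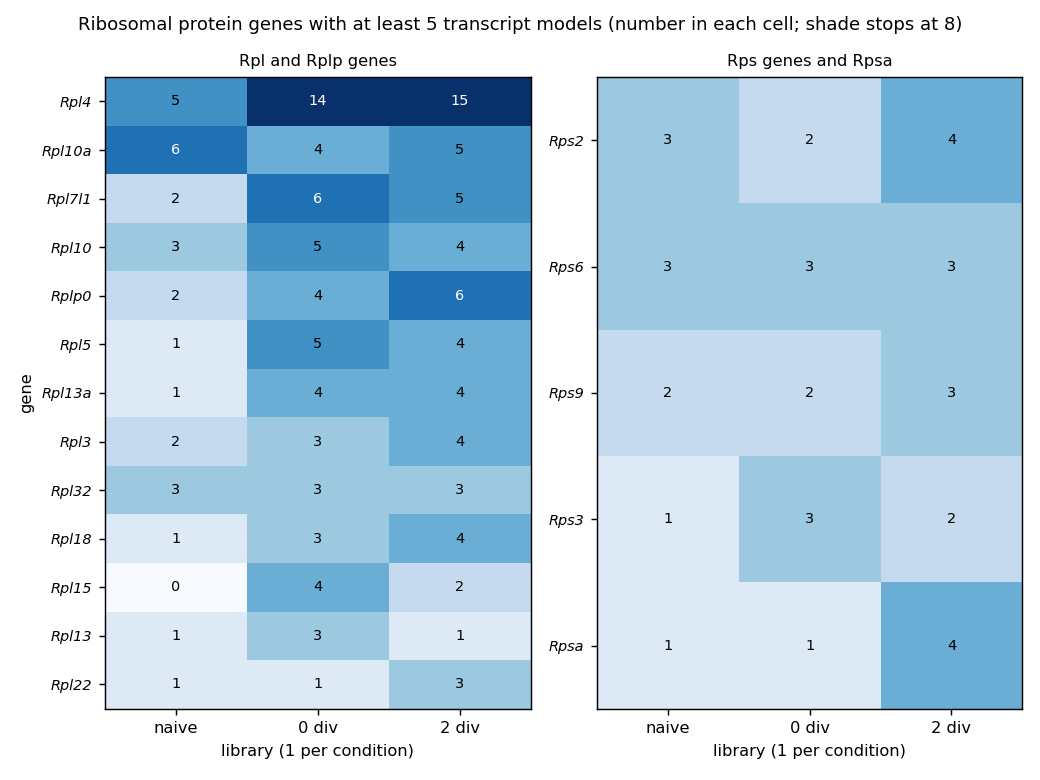
Number of spliced transcript models of each ribosomal protein gene with at least 5 over all libraries (rows) in the naive, undivided (0 div) and 2-division (2 div) libraries (columns), with the number printed in each cell. Rpl4 stands out with 5, 14 and 15 models, and Rpl15 has none in naive cells.

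The starts of ribosomal protein models differed from those of other genes in their sequence. A model start was set against the annotated transcript starts of its gene, and 53 of 58 models in naive cells, 103 of 120 in the undivided cells and 107 of 122 after 2 divisions began within 50 nt of one. Of these, 35 of 53 (66.0%, 51.7% to 78.5%), 59 of 103 (57.3%, 47.2% to 67.0%) and 46 of 107 (43.0%, 33.5% to 52.9%) began exactly at a C followed by at least 4 pyrimidines. In all other protein-coding genes the shares were 1.49%, 2.03% and 1.85%. In mitochondrial ribosomal protein genes, 0 of 31, 0 of 47 and 0 of 49 models had such a start, and in proteasome genes 0 of 53, 0 of 65 and 0 of 73. The widest of these exact intervals, for the mitochondrial genes in naive cells, reached 11.2%. The pyrimidine run at these starts had a median length of 8 nt in naive cells and 9 nt in both activated libraries. Runs were counted over 15 nt at most, a limit reached in Rpl7 and Rps24, whose runs may be longer. Taken over all libraries, 47 of 66 genes with a start near an annotated one had at least 1 model with a TOP start.

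The first base itself was C in 69.8% of ribosomal protein models in naive cells, 63.1% in the undivided cells and 47.7% after 2 divisions. In other protein-coding genes it was C in 4.48%, 6.03% and 5.84%, and A or G in most of the rest. The base before the start was a pyrimidine in 98.1%, 96.1% and 87.9% of ribosomal protein models and in 83.0%, 83.0% and 82.6% of other models, so that a pyrimidine was common at this place in both kinds. Further upstream they differed, and 5 bases before the start a pyrimidine stood in 75.5%, 74.8% and 73.8% of ribosomal protein models, against 50.5%, 49.7% and 49.9% of other models. The annotation itself places the start of the principal transcript on such a run in 12 of the 86 genes (14%) and in 2.08% of other genes.

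**Figure D3:**
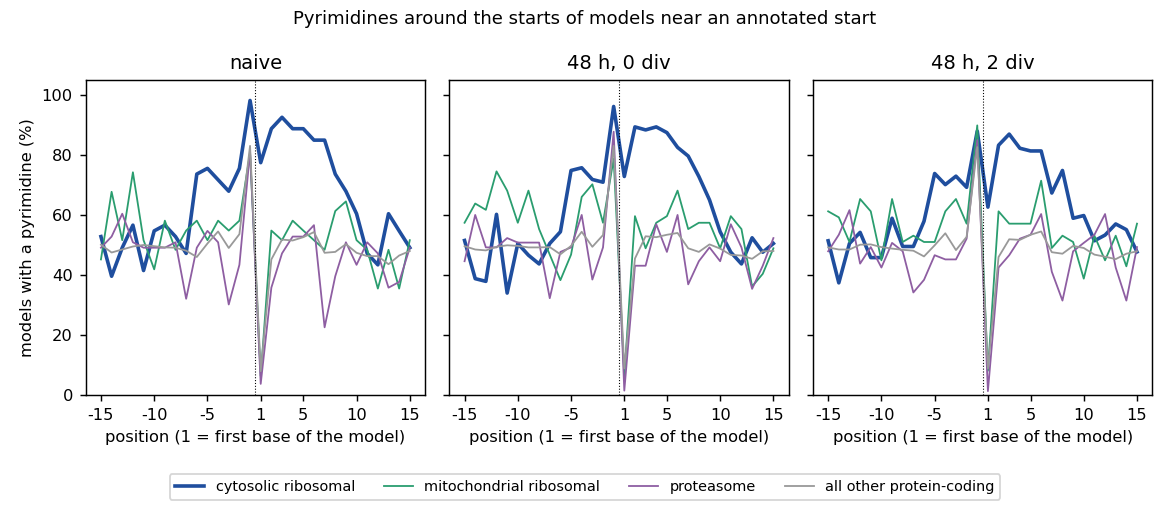
Share of models with a pyrimidine (vertical axis, %) at each position from 15 bases before to 15 bases after the start (horizontal axis; 1 is the first base of the model) in naive, undivided and 2-division cells, for 4 gene sets. At position 3 pyrimidines made up 92.5%, 88.3% and 86.9% of ribosomal protein models, against 51.8%, 52.9% and 51.9% of other protein-coding models.

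For genes that could be compared in all 3 libraries, the share of exact TOP starts was close in both activated libraries. In the 25 genes with a start near an annotated one in every library, 31 of 47 models in naive cells (66.0%), 37 of 64 in the undivided cells (57.8%) and 40 of 70 after 2 divisions (57.1%) had an exact TOP start. Genes with such a start in the activated libraries only were not part of this set. Among them Rpl15 had 3 TOP starts of 4 in the undivided cells and 0 of 2 after 2 divisions. Rps27a had 1 of 1 and 0 of 3, and Rpl7a went the other way with 0 of 1 and 1 of 1. When the run could begin within 5 nt of the model start, the shares over all genes were 88.7%, 82.5% and 74.8%. Rpl4 had 2 TOP starts of 4 near an annotated start in naive cells, 9 of 12 in the undivided cells and 10 of 12 after 2 divisions. Rpl10a had 5 of 6, 3 of 4 and 5 of 5, Rpl32 had 3 of 3, 3 of 3 and 2 of 3, and Rps7 and Rpl9 had 1 of 1 in each library. In Rpl3 all 9 models began 2 bases inside its run, which left 4 pyrimidines from the first base and no TOP start by the exact rule. Rpl7l1 had 0 of 13 and Rps27l 0 of 2, also with the wider rule. Rps16 and Rpl28, seen in the activated libraries only, had none there.

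The rule that a start lie within 50 nt of an annotated one set aside 37 models in all. Rpl13 began 64 nt after the annotated start in 1 model of each library, on a run of 7 pyrimidines, and Rps23 began 52 nt before it on a run of 11. All 3 models of Rps3a1 began 101 to 107 nt downstream, without a run. Of the distant starts, 3 in naive cells, 8 in the undivided cells and 11 after 2 divisions left a model without the annotated start codon. Rpl4 had 6 of these.

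Ribosomal protein models kept introns more often than those of other genes. A model retained an intron when 1 of its exons ran through an intron of a coding transcript of the gene. This held for 23 of 58 models in naive cells (39.7%, 27% to 53.4%), 40 of 120 in the undivided cells (33.3%, 25% to 42.5%) and 43 of 122 after 2 divisions (35.2%, 26.8% to 44.4%). In other protein-coding genes the shares were 19.7%, 13.5% and 12.7%. Mitochondrial ribosomal protein genes had 39.4%, 10.7% and 12.9%, and proteasome genes 26.8%, 18.9% and 22.1%. Thus in both activated libraries the cytosolic family lay above the other sets, while in naive cells the mitochondrial family had as high a share.

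Rpl4, Rpl10 and Rpl10a held 38 of the 106 models that kept an intron. Without these genes the shares were 31.8% (18.6% to 47.6%), 26.8% (18.3% to 36.8%) and 28.6% (19.9% to 38.6%) in naive, undivided and 2-division cells. These shares were still above those of other genes, but the naive interval held the 19.7% of other genes. Each interval also held the share of proteasome genes in that library. Counted by gene, 15 of 34 (44.1%), 24 of 60 (40%) and 24 of 54 (44.4%) ribosomal protein genes had such a model, against 23.0%, 18.7% and 17.4% of other genes. Over all libraries 37 of the 70 genes seen had at least 1.

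The models that kept an intron were longer. Their median length was 1723 nt in naive cells, 1702.5 nt in the undivided cells and 1751 nt after 2 divisions, and that of the other ribosomal protein models was 831, 717 and 826 nt. Among models under 1000 nt, 1 of 26, 4 of 60 and 6 of 59 kept an intron, shares of 3.85%, 6.67% and 10.2% against 3.21%, 2.60% and 2.05% in other genes. From 1000 to under 2000 nt the shares were 66.7%, 54.2% and 51.1%, against 15.9%, 10.3% and 10.5%. Few models of any library were under 1000 nt, and the part of model length in the shares with a kept intron was not tested.

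Of the 300 models of the 3 libraries, 173 encoded an annotated protein of their gene and 84 ended translation from the annotated start codon early, more than 50 nt before the model's last exon junction. A further 23 had no annotated start codon. The other 20 had one and no early stop, but encoded no annotated protein or reached the end of the model without a stop codon. The early stops made up 31.0% of models in naive cells, 26.7% in the undivided cells and 27.9% after 2 divisions, against 19.3%, 14.4% and 12.7% in other genes. Without Rpl4, Rpl10 and Rpl10a the shares were 18.2%, 18.6% and 19.4%, so that in naive cells the share was then no higher than in other genes. Early stops and kept introns lay in the same models: 77 of the 106 models with an intron had an early stop, and 7 of the 194 models without one did. In 75 of the 84 models the stop codon itself lay inside the kept intron.

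Recurring early stop codons are shown because they are where translation of these models would end. Each line gives 30 bases of the GRCm38 genome in the direction of the transcript, and capitals mark the in-frame stop codon.
Rpl10 stop: atcatgggccgccgccccgcccggtggTGA
Rpl4 stop: gtatccttgattagtgctcttggcaacTGA
Rpl18 stop: ggtgccaaggggaactgcgggacaggcTAG
Rpl3 stop: tgtaaaaggcgcttctataagaactggTAA
They lie at chrX:74270999-74271028 on the plus strand (Rpl10), chr9:64175301-64175330 on the plus strand (Rpl4), chr7:45718227-45718256 on the plus strand (Rpl18) and chr15:80081611-80081640 on the minus strand (Rpl3). Rpl10, which sits near the catalytic centre of the large subunit, kept intron 2 (635 nt, chrX:74271025-74271659) in 3 of 3 models in naive cells, 4 of 5 in the undivided cells and 4 of 4 after 2 divisions. All 11 stopped after 8 codons, at a stop codon that starts on the second base of the intron. Only 1 model of Rpl10, in the undivided cells, spliced this intron. Rpl4 kept intron 3 (283 nt, chr9:64175301-64175583), which holds the small nucleolar RNA Snord16a, in 2 of 5, 4 of 14 and 5 of 15 models, and 9 of these stopped after 103 codons. Rpl10a kept intron 3 (326 nt) in 4 of 6, 3 of 4 and 2 of 5 models. In Rpl4 other models of every library spliced the intron: 3 in naive cells, 9 in the undivided cells and 8 after 2 divisions.

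In Rpl18 the first intron of the reference mRNA (1113 nt, chr7:45718140-45719252) was kept in 1 of 1, 2 of 3 and 2 of 4 models. In Rpl3, a protein of the catalytic region known to control its own splicing in human cells, intron 3 (583 nt, chr15:80081032-80081614) was kept in 1 of 2, 1 of 3 and 2 of 4. Rpl32 kept its last intron (1297 nt, chr6:115805689-115806985) in 2 of 3 models of each library, and none of these 6 had an early stop by the rule. Their stop codons lay in the last exon of the model, where the rule calls none. None of the 6 encoded the annotated protein of 135 amino acids, and their reading frames ended after 93 or 42. The same kept introns thus recurred: of 70 reference introns kept in any model, 30 were kept in at least 2 libraries and 12 in all 3. These 70 were 22.2% of the 315 reference introns of the genes seen.

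**Figure D4:**
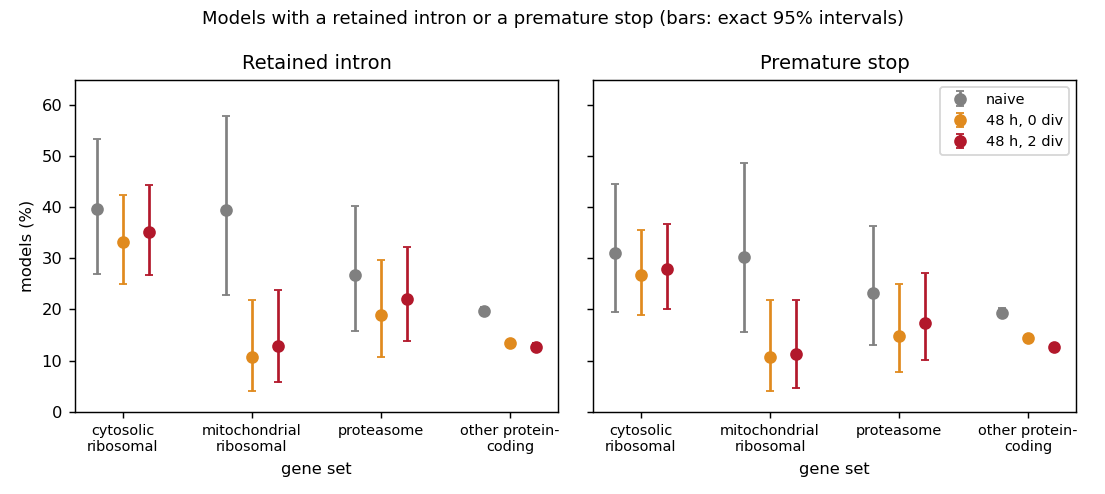
Share of models (vertical axis, %) that kept an intron (left) and that had an early, or premature, stop codon (right), by library, for cytosolic ribosomal protein genes, mitochondrial ribosomal protein genes, proteasome genes and other protein-coding genes, with exact 95% intervals. The cytosolic family had kept introns in 39.7%, 33.3% and 35.2% of models and early stops in 31.0%, 26.7% and 27.9% in naive, undivided and 2-division cells.

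Most genes had a model of the annotated protein: 29 of 34 in naive cells, 55 of 60 in the undivided cells and 50 of 54 after 2 divisions. Over all libraries 65 of 70 genes had one, and Rpl12, Rpl35a, Rps12 and Rps15 were among those without. Intron chains, the full set of introns of a model, numbered 162 in all, of which 30 were found in each library. Of the 106 chains of the undivided cells 37 were also in naive cells and 61 after 2 divisions. The whole chain was annotated in 72.4%, 67.5% and 64.8% of models in naive, undivided and 2-division cells, and when consecutive parts of an annotated chain were also allowed in 86.2%, 84.2% and 83.6%.

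The 3′ ends were few, close to the stop codon and near the annotated ends. The 3′ untranslated region was measured in models whose reading frame ended at a stop codon that was not early. Its median was 62 nt in naive cells, 49 nt in the undivided cells and 52.5 nt after 2 divisions, against 700, 568 and 527 nt in other genes. It was 319, 311.5 and 267 nt in mitochondrial ribosomal protein genes and 171 nt in proteasome genes in each library. A poly(A) signal (AATAAA or ATTAAA in the last 50 nt) stood at 96.6%, 91.7% and 90.2% of ribosomal protein ends and at 68.1%, 68.8% and 69.1% of other ends. Ends followed in the genome by at least 12 A in 20 bases, where a primer can bind inside the RNA, numbered 0, 2 and 3 models, shares of 0%, 1.67% and 2.46% against 23.2%, 19.4% and 19.9% in other genes.

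With ends up to 24 nt apart merged, 3 of 13 genes with at least 2 models had several ends in naive cells (23.1%, 5.04% to 53.8%), 8 of 23 in the undivided cells (34.8%, 16.4% to 57.3%) and 10 of 26 after 2 divisions (38.5%, 20.2% to 59.4%). In other genes the shares were 58.7%, 60.1% and 59.1%. Ends of 4 genes with more than 1 are shown as examples of ends with and without a poly(A) signal, near and far from the annotated ones. Each line holds the last 30 bases before an end in the GRCm38 genome in the direction of the transcript, with the poly(A) signal in capitals, and the number in its name is the distance in nt from the nearest annotated end.
Rpl4 end -150: catatttcAATAAAtcaaacatgtggtgac
Rpl4 end 0: caaaattttttaAATAAAatttcattctct
Rplp0 end -216: gaaagatggaAATAAAggcttacttctctt
Rplp0 end -95: tctaaaATTAAAgctcctagtgtttttgtg
Rplp0 end 6: tgtgaATTAAAggtgtatgtcatcaagccc
Rps6 end -2: gcaacaAATAAAtaatgaccttgaatcttt
Rps6 end 557: tgcagacagtaaaatgagaaatacccttcc
Rpl22 end 0: ttttgtattaattcataAATAAAatttagg
Rpl22 end -2: actttttgtATTAAAgtggctgacacatgg
They lie at chr9:64178487-64178516 and chr9:64178637-64178666 on the plus strand (Rpl4), chr5:115563482-115563511, chr5:115563603-115563632 and chr5:115563704-115563733 on the plus strand (Rplp0), chr4:86854662-86854691 and chr4:86854103-86854132 on the minus strand (Rps6), and chr4:152332444-152332473 and chr4:152334039-152334068 on the plus strand (Rpl22). Rpl4 ended about 150 nt before its annotated end in 4 models of naive cells, 10 of the undivided cells and 11 after 2 divisions. In 1 model of each library it ended at the annotated end or up to 15 nt beyond it. The end most used by Rpl4 was thus not the annotated one. A further 5 models of Rpl4, 2 in the undivided cells and 3 after 2 divisions, ended inside the coding region with no signal, and 10 or 11 A followed in the next 20 bases.

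Rplp0 ended about 216 nt before its annotated end in 2, 2 and 4 models of naive, undivided and 2-division cells. Its middle and last ends had 1 model each in both activated libraries and none in naive cells. Rps6 ended within 24 nt of its annotated end in 2 models of each library. It ended about 557 nt beyond it in 1 model of each, with no poly(A) signal at that place. Rpl7l1 and Rpl4 had 5 merged ends each over all libraries. Models of Rpl7l1 with a 3′ untranslated region of 1841 and 1246 nt were found in every library, and those of about 648 and 256 nt in both activated libraries only. Rpl13a and Rpl15 also had a near and a far end: in the activated libraries, models of Rpl15 had 50 and 1187 nt after the stop codon, and models of Rpl13a had 23 and 380 or 387 nt. For Rps3 the far end, at 1055 nt, was in the undivided cells only, and for Rpl5 that at 1008 nt was found after 2 divisions only.

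**Figure D5:**
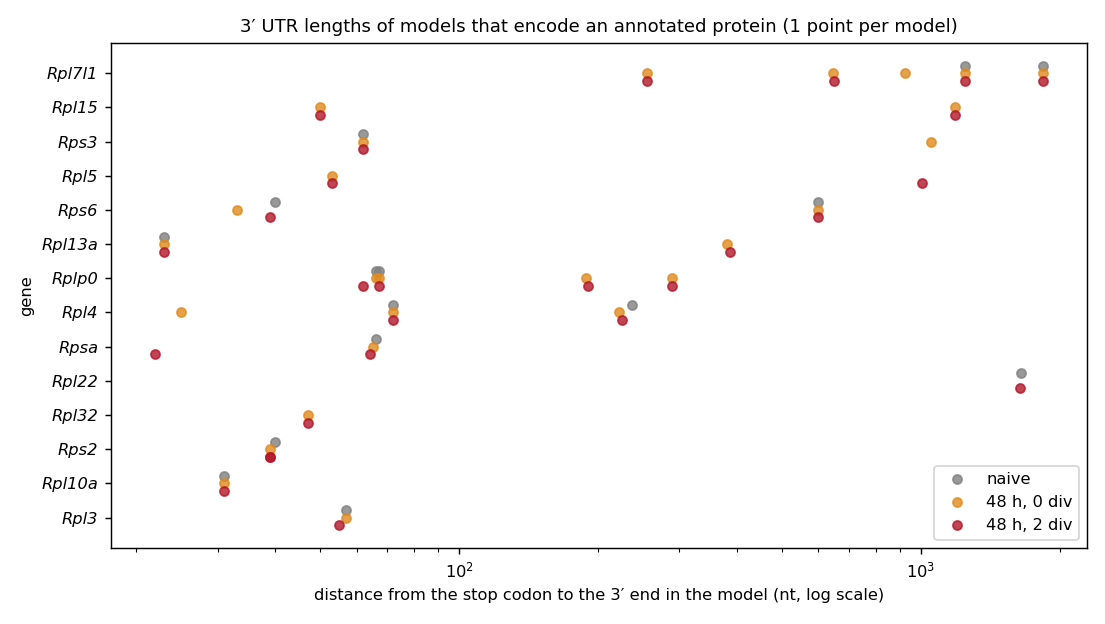
Length of the 3′ untranslated region (horizontal axis, nt, log scale) of the models that encode an annotated protein, 1 point per model, for 14 ribosomal protein genes (rows) in naive, undivided (0 div) and 2-division (2 div) cells. Rpl7l1 spans 255 to 1841 nt with its shortest forms in the activated libraries only, while all points of Rpl3, Rpl10a, Rpl32 and Rps2 lie under 100 nt.

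Terminal exons (the last exon of a model, grouped by its first base) were compared where 2 libraries had the same one. In undivided against naive cells 1 of 33 was shorter by over 100 nt, where 13.0% of all terminal exons were, and 1 was longer, where 5.68% were. After 2 divisions against naive cells 2 of 34 were shorter, where 13.6% of all were, and 1 was longer, where 4.78% were. The shorter one in both was Rpl7l1, with a mean of 916 nt in the undivided cells and 839 nt after 2 divisions, against 1532.5 nt in naive cells. After 2 divisions Rpl22, needed for the development of mouse alpha-beta T cells, also had a shorter one, with 725.7 nt over 3 models, against 1797 nt in the single naive model. Between 2-division and undivided cells 1 of 46 (Rps3) was shorter, where 8.40% of all were, and 2 (Rpl5 and Rpl15) were longer, where 6.92% were. Few terminal exons of ribosomal protein genes thus passed the rule of over 100 nt, and those that did had between 1 and 6 models in a library. The median 3′ untranslated region of these genes was 62, 49 and 52.5 nt, against 700, 568 and 527 nt in other genes. This left little room to become shorter by over 100 nt, so the shares with a shorter exon cannot be compared directly with those of all genes.

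Ribosomal proteins whose symbols the rule does not cover, and other mRNAs known for a TOP sequence, were read in the same way. Rack1, a small subunit scaffold protein, had 4, 5 and 4 models in naive, undivided and 2-division cells, and Fau, whose protein is made as a fusion with a ubiquitin-like one, had 0, 0 and 1. None of the 8 models of Rack1 near an annotated start had a TOP start. Of 15 other TOP mRNAs, mostly translation factors, 14, 13 and 14 were seen, with 36, 88 and 78 models. Among their starts near an annotated one 13 of 24, 15 of 37 and 11 of 39 were TOP starts. Pabpc1, the poly(A) binding protein, had 9, 21 and 17 models and 20 TOP starts of 22, and Eef2, an elongation factor, had 3, 17 and 15 models and 8 TOP starts of 11. Others of the list had few or none, with 0 of 7 in Npm1, 0 of 5 in Eef1a1, 1 of 11 in Nap1l1 and 1 of 9 in Hnrnpa1.

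The labelled cell type was checked against marker genes by their models. All 6 CD4 T cell markers (Cd3d, Cd3e, Cd3g, Cd4, Lck and Trac) were seen in naive cells, and all but Cd3g and Trac in both activated libraries. The activation markers Il2ra, Tnfrsf4 and Tfrc had 0 models in naive cells and 27 and 17 models in undivided and 2-division cells. Of 4 B cell markers 3 had models in naive cells (among them Ms4a1 with 2 and Cd79b with 1, and none of Cd79a), and 0 of 4 did in either activated library. Lyz2 and Hbb-bs, of myeloid and red blood cells, had 1 model each, both in naive cells alone, and Cd8b1 had 1 in naive and 1 in the undivided cells. The other markers of these lists, Itgam and Csf1r (myeloid), Hba-a1 (red blood cell) and Cd8a, had no model in any library. Some but not all marker genes of other cell types thus had models in the naive library. Their part in the differences between naive and activated libraries was not tested.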

How the data were processed

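RNA of CD4+ T cells was sequenced as full-length molecules on the PacBio Sequel in 3 libraries, 1 per condition. The authors built consensus sequences (ccs), trimmed primers (lima), and required a poly(A) tail before clustering (isoseq3). Polished isoforms were aligned with pbmm2, merged into models by isoseq3 collapse and corrected with SQANTI3. The submitters' processing notes name minimap2, Subread, mm10 and GRCm38, and give no versions. The deposited values are genome positions of exons, with no score, read count or abundance, so that read depth is unknown. The number of models per library stands in for it: 10527 in naive cells, 12602 in the undivided cells and 11109 after 2 divisions.

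Models were assigned, on their strand, to the GENCODE M21 gene (GRCm38) with which they shared most splice sites. Counts are of models, and intervals are exact (Clopper-Pearson) at 95%. They cover counting error only, and neither genes nor models are replicates. Starts counted as annotated within 50 nt, 3′ ends within 24 nt were merged, and an early stop lay over 50 nt before the last junction. Sequences were read from the RefSeq GRCm38 genome with pysam 0.24.0, and intervals were computed with scipy 1.17.1 in Python 3.11.15. The steps were tested on simulated models of 200 genes, and the gene, chain, start, end, kept intron and start codon were recovered for all 200. These models were copies of annotated transcripts, with an intron kept or the ends moved. The test therefore checked the reading of models only, and not truncated models or pseudogenes. Named genes were those with the most models, absent from a library, past the rule for a change, or with the most kept introns, several ends, early stops or distant starts, together with paralogs and stalk proteins. The genes and lists were chosen with earlier results of these data known. Left out were 6 protein-coding genes whose symbols end in ps and a number. Ribosomal protein genes have many near-identical processed pseudogenes, and reads could align to either. Rps10, Rpl13a and Rpl24 overlap annotated readthrough or neighbouring genes, so their models are uncertain. Alternative settings varied the rules for assignment, starts, signals, introns and A-rich ends. Some genes and positions are not reported here.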

Additional observations from a re-analysis of the deposited data

Results flagged for a closer look

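Models without introns were left out of all comparisons, and such models were found on ribosomal protein pseudogenes (genes with a ps symbol, some of them annotated as protein-coding) and on the ribosomal protein genes themselves. On the pseudogenes there were 5 models in undivided cells and 7 after 2 divisions, against 1 in naive cells, none of them spliced. All of them were followed in the genome by an A-rich stretch. Some lay on Rpl10-ps3, Rpl15-ps3 and Rpl9-ps6 in both activated libraries. On the ribosomal protein genes there were 12 single-exon models in undivided cells and 9 after 2 divisions, against 5 in naive cells. Over all genes the naive library held the most, with 586 and 542 single-exon models against 624 in naive cells. Of those on ribosomal protein genes, 3, 0 and 0 in the same order of libraries were followed by an A-rich stretch. Rpl36al and Rpl39 in undivided cells and Rps29 in naive cells, which had no spliced model in any library, had 1 single-exon model each. The numbers on pseudogenes and on ribosomal protein genes are above those of the naive library, with 1 library per condition and no test.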

How the results depend on the processing

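Of 75 alternative settings tried over 27 results, 63 left a share within its exact interval, or a count within 1.5 times, and 12 moved it. When a consecutive part of an annotated intron chain was accepted, the share of annotated chains was 86.2%, 84.2% and 83.6% in naive, undivided and 2-division cells. TOP starts made up 88.7%, 82.5% and 74.8% when the run could begin within 5 nt of the start, and 50.9%, 43.7% and 32.7% when at least 6 pyrimidines had to follow the C. With starts accepted only within 20 nt of an annotated one, 75% of models in undivided cells and 77.9% after 2 divisions were near it. With AATAAA as the only signal, 84.2% of ends in undivided cells had one. Each of these follows from a wider or narrower rule. The exact intervals are wide, and some settings counted as unmoved also changed a value. With a stop at any distance before the last junction, early stops made up 39.7%, 35% and 33.6% of models, where the main values were 31%, 26.7% and 27.9%. Without chains that are part of a longer chain, 90 models were left after 2 divisions, of 122. Chosen after seeing the data were the settings that counted only introns of the reference mRNA, took TOP starts over all models, or left out models before A-rich stretches for the genes seen and the early stops, and none of these moved a value. Leaving out a replicate was not possible with 1 library per condition. No paired analysis was possible because each condition had 1 library and no test was run. With no read counts, a gene without a model was not detectable at this depth and may still be expressed.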

Other observations

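Many ribosomal protein genes carry small nucleolar RNAs, which guide the modification of ribosomal RNA, in their introns. Of the 315 reference introns of the genes seen, 52 held an annotated small nucleolar RNA, and 16 of these (30.8%) were kept in at least 1 model, against 54 of 263 (20.5%) of the others. The introns with a small nucleolar RNA were longer, with a median of 404.5 nt against 338 nt. An intron counted as kept if any model kept it, so that genes with many models had more chances. Rpl4, with 34 models, kept several of the introns with a small nucleolar RNA. The parts of intron length and of the number of models per gene in this difference were not tested. Kept introns were more frequent among long introns, with 14 of 46 (30.4%) from 1000 nt and 25 of 141 (17.7%) under 300 nt.

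Short models recurred at the same bases in several libraries. Rps2 had a model of 529 nt with 3 exons and no annotated start codon in each library, and its intron chain is annotated. Rps15 had a model of 187 nt and Rpl13a one of 197 nt, each with 2 exons and no annotated start codon, in both activated libraries and not in naive cells. Introns that the annotation does not hold were found in 2 models, both of undivided cells: 1 of 993 nt in Rpl5 (chr5:107903724-107904716) and 1 of 1201 nt in Rpl4 (chr9:64173623-64174823), both with GT at the first and AG at the last bases.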
